A study of Mus musculus with 12 samples.

Results

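The liver transcripts of 36 antioxidant and NRF2 response genes were followed in mice under caloric restriction (CR). The 36 genes were taken by symbol from a fixed list that sets no condition on measured values, although the list was drawn up with earlier results of these data known. Each had a row among the 24537 genes of the deposited table. Levels are in FPKM, the fragments on a gene's exons after correction for how long those exons are and how deeply the library was sequenced. A filter on low values (FPKM of at least 1 in at least 3 of the 12 libraries) left 10593 genes, among them 34 of the 36. The lowest FPKM of these 34 genes in any library was 1.71 (Gpx3), so none of them passed the filter through 1 group alone. Ggt1 and Slc7a11 did not pass it.

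The samples were livers of 12 male C57Bl/6J mice, 6 weeks old at the start and housed singly, without any engineered allele. The controls (Con) ate NIH41 diet freely, and the CR mice received a fortified NIH41 diet with 30% fewer calories, each for 25 or 30 days with 3 mice per diet and day. All mice were given heavy water over the last days before sacrifice. The CR mice were given their food daily at a set hour, while the Con mice had unrestricted access. Meal timing thus differed with diet, and the effects of each cannot be told apart. The hour of sacrifice relative to the meal is not given in the sources used here. C57BL/6J mice carry a deletion in Nnt, the mitochondrial transhydrogenase that supplies NADPH to glutathione and thioredoxin reduction, which limits them as a model of mitochondrial antioxidant defence.

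NRF2 is a transcription factor that KEAP1 holds in the cytosol and marks for degradation. Electrophiles and peroxides modify KEAP1, after which NRF2 enters the nucleus, pairs with small MAF proteins and binds antioxidant response elements of genes for glutathione synthesis, thioredoxin reduction and detoxification. The liver, which meets dietary electrophiles and the peroxides of fatty acid oxidation, is rich in these enzymes. Superoxide dismutases, catalase, glutathione peroxidases and peroxiredoxins remove superoxide and peroxides, and some of their genes are expressed without NRF2.

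The core letters of an antioxidant response element were sought in RefSeq promoters (build GRCm38.p6, the mm10 assembly of the table), in the 250 bases before the start of transcription and on both strands. Promoters were matched by symbol for 31 of the 36 genes, and Gsr, Gclc, Msra, Prdx6 and Sod3 had no entry. For genes with several starts, the one nearest to the start in the table was used. The letters TGACNNNGC stood in 6 of the 31 windows (19.4%), against 10.2% of the 32851 promoter windows of all genes, in which a gene with several starts counts more than once. Counted in that way, the members held them in 7 of 47 windows (14.9%). The related letters TGANTCA, a match to the site of AP-1 and MAF dimers, stood in 3 of 31 windows (9.68%) and, over all starts, in 4 of 47 (8.51%), against 6.75% of all. The pair of motifs overlapped in the Prdx1 window. The windows of 4 genes that were lower in CR mice over both days are printed to show what these matches look like. Each is written 5′ to 3′ on the strand of its gene, with the matches in capitals. The Srxn1 window lies at chr2:152105274-152105523 with TGANTCA starting 102 and 45 bases before the start. The Gclm window lies at chr3:122245307-122245556 and the Txnrd1 window at chr10:82858956-82859205, with TGACNNNGC on the opposite strand 134 and 92 bases before the start. The Nfe2l2 window lies at chr2:75704664-75704913 on the minus strand of the assembly, with TGACNNNGC 240 bases before the start.
Srxn1: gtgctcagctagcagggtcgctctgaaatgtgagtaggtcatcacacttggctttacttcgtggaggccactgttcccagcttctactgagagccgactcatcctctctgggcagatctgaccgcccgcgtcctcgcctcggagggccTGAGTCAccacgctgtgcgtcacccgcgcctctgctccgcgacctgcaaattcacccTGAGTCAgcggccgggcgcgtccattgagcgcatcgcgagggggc
Gclm: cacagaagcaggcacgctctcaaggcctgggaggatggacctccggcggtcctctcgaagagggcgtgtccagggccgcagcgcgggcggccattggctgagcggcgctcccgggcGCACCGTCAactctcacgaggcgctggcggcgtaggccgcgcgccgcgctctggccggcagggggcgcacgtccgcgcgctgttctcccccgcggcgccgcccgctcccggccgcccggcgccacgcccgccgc
Txnrd1: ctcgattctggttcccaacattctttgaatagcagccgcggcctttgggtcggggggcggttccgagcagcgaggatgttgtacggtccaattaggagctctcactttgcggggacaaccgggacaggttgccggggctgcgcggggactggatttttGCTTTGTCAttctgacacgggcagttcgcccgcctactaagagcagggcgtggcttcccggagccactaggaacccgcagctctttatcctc
Nfe2l2: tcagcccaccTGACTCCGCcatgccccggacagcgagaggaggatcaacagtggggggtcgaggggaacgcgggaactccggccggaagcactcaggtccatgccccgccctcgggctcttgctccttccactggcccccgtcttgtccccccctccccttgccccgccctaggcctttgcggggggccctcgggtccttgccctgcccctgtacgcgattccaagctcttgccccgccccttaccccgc
Among the genes lower in CR mice over both days, 3 of the 7 with a promoter entry held TGACNNNGC, against 0 of the 5 higher genes and 3 of the 19 others. The 19 include Ggt1 and Slc7a11, which were not tested, and the 3 with a match were Ggt1, Prdx1 and Sod1. The lower genes Srxn1, Ephx1, Cat and Gpx3 held no TGACNNNGC. Of the 3 lower genes that held it, Nfe2l2 lost its call in some alternative fits. TGANTCA stood in 1 of the 7 lower genes, 1 of the 5 higher genes and 1 of the 19 others. These counts are a description of a short window and leave the sites that NRF2 occupies unknown.

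The recovered depth of the libraries was 15748722 to 23345521 reads, and genes with few reads are measured less precisely. The 5 hepatocyte markers (Alb, Apoa1, Ttr, Cps1 and Apob) summed to 43023 to 49936 FPKM in Con and 48586 to 51683 FPKM in CR mice at day 25, with none called. At day 30 they summed to 36113 to 44845 FPKM in Con and 52114 to 62432 FPKM in CR mice, without overlap, and 2 were higher and 1 lower. No marker of T and B cells or of neutrophils passed the filter. The T and B cell sum was lower in CR mice without overlap, at 0.241 to 0.36 against 0.552 to 0.719 FPKM at day 25 and 0.252 to 0.567 against 0.839 to 1.31 FPKM at day 30. The neutrophil sum was 0.123 FPKM or less against 0.492 to 0.767 FPKM at day 25 and overlapped at day 30. The T and B cell and neutrophil sums rest on few reads. Among single tested genes, Con and CR mice did not overlap for 28.2% at day 25 and 36.4% at day 30. Of the 7 Kupffer cell and macrophage markers, 4 were lower in CR mice at day 25 (summed level 24.6 to 32.2 against 39.3 to 64.8 FPKM in Con mice) and 1 was higher at day 30 (33.9 to 45.2 against 33.9 to 50.4 FPKM). Of the 6 sinusoidal endothelium markers, 1 was higher at day 25 and 3 at day 30, as were 1 and 3 of the 6 tested stellate cell markers. Alas2, 1 of 7 tested red blood cell markers, was lower at each day, while the summed level of that list overlapped between Con and CR mice (306 to 1872 FPKM over all mice). Cholangiocyte markers summed to 7.57 to 17.8 FPKM. Beside these counts of markers, 5.60% of all tested genes were higher and 9.34% lower at day 25 (adjusted p under 0.1). At day 30 the shares were 8.33% and 16.4%. The part of these lists in the results for antioxidant genes was not tested. In whole liver, fewer cells of a type and less RNA per cell cannot be told apart.

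CR was compared with Con at each day on log2(FPKM + 1) with limma, and a gene was called at a Benjamini-Hochberg adjusted p under 0.1 over the 10593 genes. At day 25, Prdx6 was the 1 gene of 34 that was higher in CR mice, where 5.60% of all tested genes were, and 4 of 34 were lower (Srxn1, Gsr, Txnrd1 and Gpx3), where 9.34% of all were. At day 30, 4 of 34 were higher (Glrx, Prdx6, Nqo2 and Txn2), against 8.33% of all genes, and 6 of 34 were lower (Srxn1, Ephx1, Gclc, Gsr, Gclm and Txnrd1), against 16.4% of all. With both days in a single fit and day as a covariate, 6 of 34 were higher (17.6%, against 14.5% of all) and 9 of 34 lower (26.5%, against 26.1% of all). The shares of called genes therefore stood near those of all tested genes, and what follows describes single genes rather than a shift of the set.

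**Figure D1:**
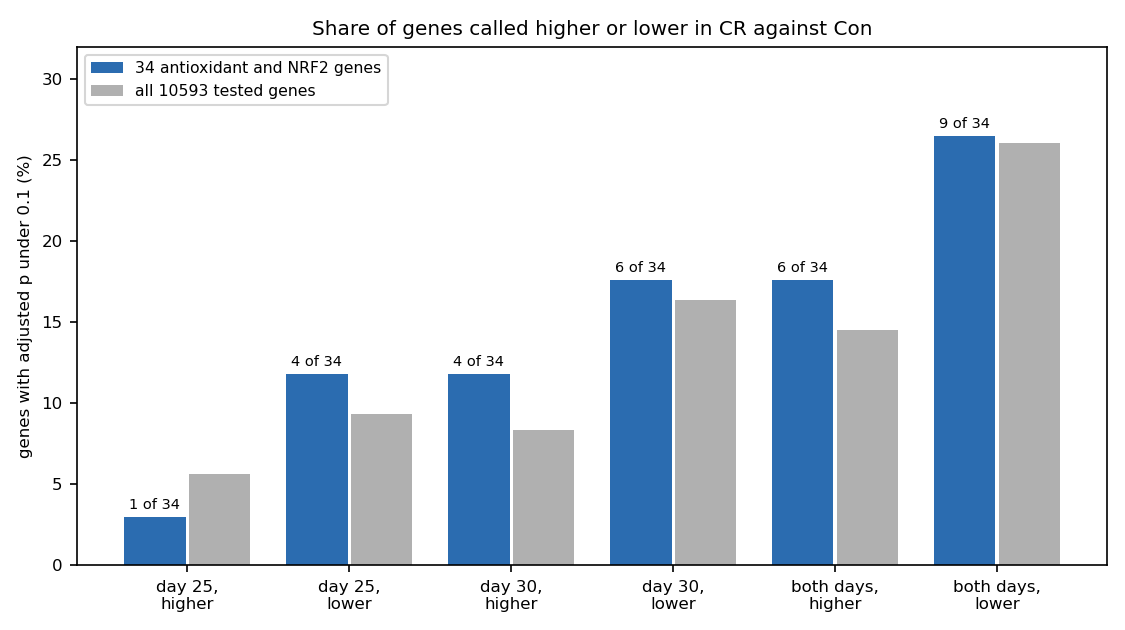
Percent of genes called higher or lower in CR against Con mice (adjusted p under 0.1) for the 34 tested antioxidant and NRF2 genes (blue, with their number) and for all 10593 tested genes (grey), at day 25, at day 30 and over both days. The blue bar is below the grey bar for day 25, higher (2.94% against 5.60%), where 1 gene of 34 makes 2.94%. It is above the grey bar in the other pairs, such as 11.8% against 8.33% (day 30, higher) and 26.5% against 26.1% (both days, lower).

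Changes were small. The fold changes ran from -0.86 to 0.35 on the log2 scale at day 25 and from -0.91 to 0.63 at day 30, with medians of 0.029 and 0.093 against -0.039 and -0.068 for all tested genes. None of the 34 genes reached an absolute log2 fold change of 1, which 1.48% of all genes did with an adjusted p under 0.1 at day 25 and 2.21% at day 30. The ranges of Con and CR mice did not overlap for 9 of the 34 genes at day 25 (26.5%, against 28.2% of all genes) and for 13 at day 30 (38.2%, against 36.4%). The split into higher and lower depends on the scaling between libraries. With median-ratio scaling, 929 genes in all were higher and 799 lower at day 25 (593 and 989 as deposited) and 1319 higher and 1238 lower at day 30 (882 and 1737). Over both days, that scaling gave 2229 higher and 1995 lower genes in all (1536 and 2768 as deposited). The 34 genes split under it into 2 higher and 3 lower at day 25, 6 and 6 at day 30, and 10 and 7 over both days. For 3 mice against 3, no exact permutation test of a single gene can go below p = 0.1, so each test rests on the spread shared across genes.

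**Figure D2:**
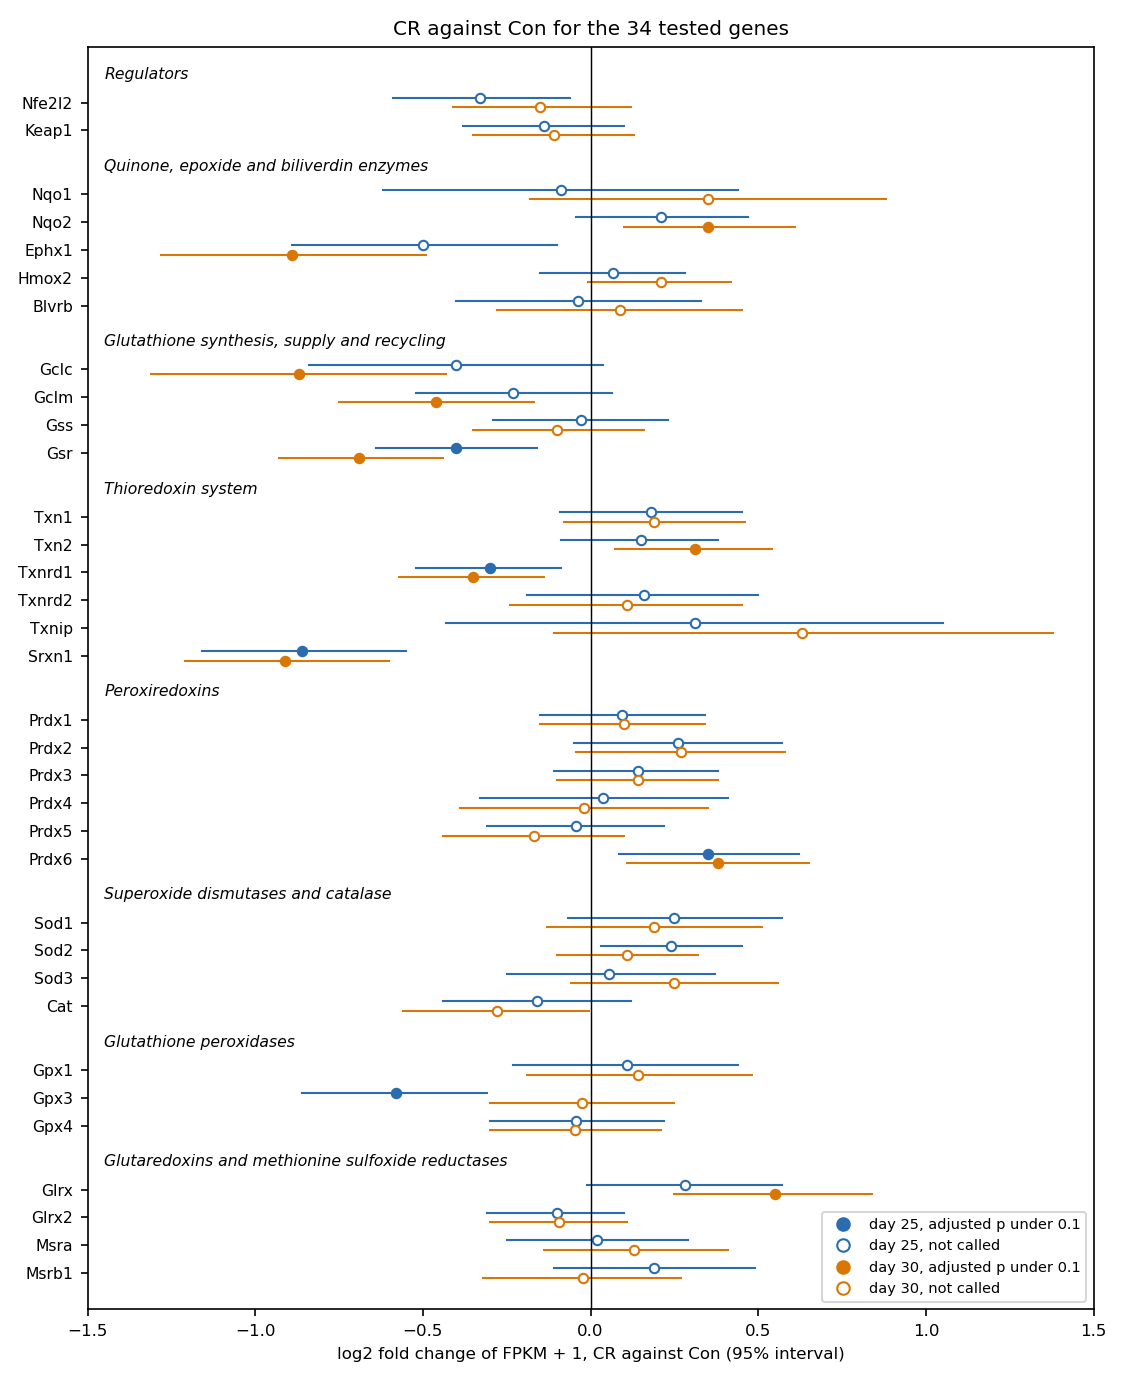
Log2 fold change of FPKM + 1 in CR against Con mice (x axis) for each of the 34 tested genes, grouped by role, at day 25 (blue) and day 30 (orange). Points are estimates, lines their 95% intervals, and filled points have an adjusted p under 0.1. Srxn1, Gsr and Txnrd1 lie below 0 with filled points at both days, and Prdx6 above 0.

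The regulators themselves moved little. Nfe2l2 (chr2:75675513-75704663, minus strand), which encodes NRF2, had an FPKM of 24.2, 17.5 and 17.8 in the Con mice of day 25 and 16.0, 14.1 and 16.3 in the CR mice. At day 30, its FPKM was 21.5, 21.8 and 24.5 in Con and 20.6, 21.2 and 19.0 in CR mice. All CR mice lay below all Con mice of their day, narrowly so at day 30. Over both days, Nfe2l2 fell by 0.24 in log2 terms (standard error, SE, of 0.086, adjusted p = 0.0513). Neither day passed alone, with log2 fold changes of -0.33 (SE 0.12, adjusted p = 0.118) and -0.15 (SE 0.12, adjusted p = 0.431). With the mouse number as a replicate block at day 25, the fall of that day passed (adjusted p = 0.0728). It also passed without Con replicate 2 of that day. The call over both days was lost with median-ratio or quantile scaling and without CR replicate 2 of day 25 (adjusted p = 0.104 without that mouse, up to 0.176 over the alternatives).

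Keap1 (chr9:21229730-21239332, minus strand), the adaptor that holds NRF2 back, had an FPKM of 13.2, 16.9 and 16.5 in Con and 14.2, 14.3 and 13.2 in CR mice at day 25. At day 30 the values were 18.3, 14.7 and 15.4 in Con and 15.4, 14.9 and 14.2 in CR mice. The groups overlapped at both days, and the log2 fold change over both days was -0.12 (SE 0.074, adjusted p = 0.217, 95% interval -0.28 to 0.036).

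Glutathione synthesis and recycling held 3 of the 9 lower genes. Glutamate-cysteine ligase, which makes the first and rate-limiting step of glutathione synthesis, is built of the catalytic subunit Gclc and the modifier Gclm. Gclc (chr9:77754535-77794489, plus strand) had 107, 72.4 and 59.0 FPKM in Con and 59.9, 59.0 and 55.0 FPKM in CR mice at day 25. Day 30 gave 111, 102 and 91.3 FPKM in Con and 41.7, 66.7 and 59.5 FPKM in CR mice. The Con mice of day 25 were widely spread and reached down to the CR mice, while at day 30 the groups were well apart. Gclc fell at day 30 by 0.87 on the log2 scale (SE 0.20, adjusted p = 0.0137), in every alternative fit, and the difference of -0.40 at day 25 did not pass (SE 0.20, adjusted p = 0.239).

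Gclm (chr3:122245557-122267215, plus strand), one of the genes whose promoter window holds TGACNNNGC, had 74.8, 65.1 and 51.3 FPKM in Con and 52.3, 53.9 and 54.9 FPKM in CR mice at day 25. Its day 30 values were 78.8, 71.5 and 71.7 FPKM in Con and 46.4, 58.4 and 56.1 FPKM in CR mice. As for Gclc, 1 Con mouse of day 25 lay within or below the CR mice, and the groups were apart at day 30. Gclm fell by 0.46 at day 30 (SE 0.13, adjusted p = 0.0342), a call lost without Con replicate 1 (the Con mice of day 30 are numbered by their columns) or CR replicate 1 of that day (adjusted p = 0.105 to 0.141). Over both days the fall of 0.34 (SE 0.10, adjusted p = 0.016) held in every alternative fit.

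Gsr (chr8:33653238-33698162, plus strand), glutathione reductase, returns oxidised glutathione to its reduced form with NADPH. Its FPKM at day 25 was 28.3, 26.1 and 25.8 in Con and 20.9, 19.5 and 19.8 in CR mice. The day 30 values were 32.7, 34.5 and 27.4 in Con and 16.6, 21.3 and 19.7 in CR mice. All 6 CR mice were below all 6 Con mice. Gsr fell by 0.40 at day 25 (SE 0.11, adjusted p = 0.0435) and by 0.69 at day 30 (SE 0.11, adjusted p = 0.00194). The call at day 25 was lost without Con replicate 1 or CR replicate 3 of that day (adjusted p = 0.118 to 0.132). Gss, glutathione synthetase, ranged from 25.2 to 33.1 FPKM over the 12 mice, with overlapping groups and a log2 fold change of -0.064 over both days (SE 0.08, adjusted p = 0.568), whose sign turned with median-ratio scaling. Ggt1, which splits extracellular glutathione, was at 0.151 FPKM or less in each mouse, and Slc7a11, the cystine carrier, was listed at 0 in 10 of 12 mice.

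**Figure D3:**
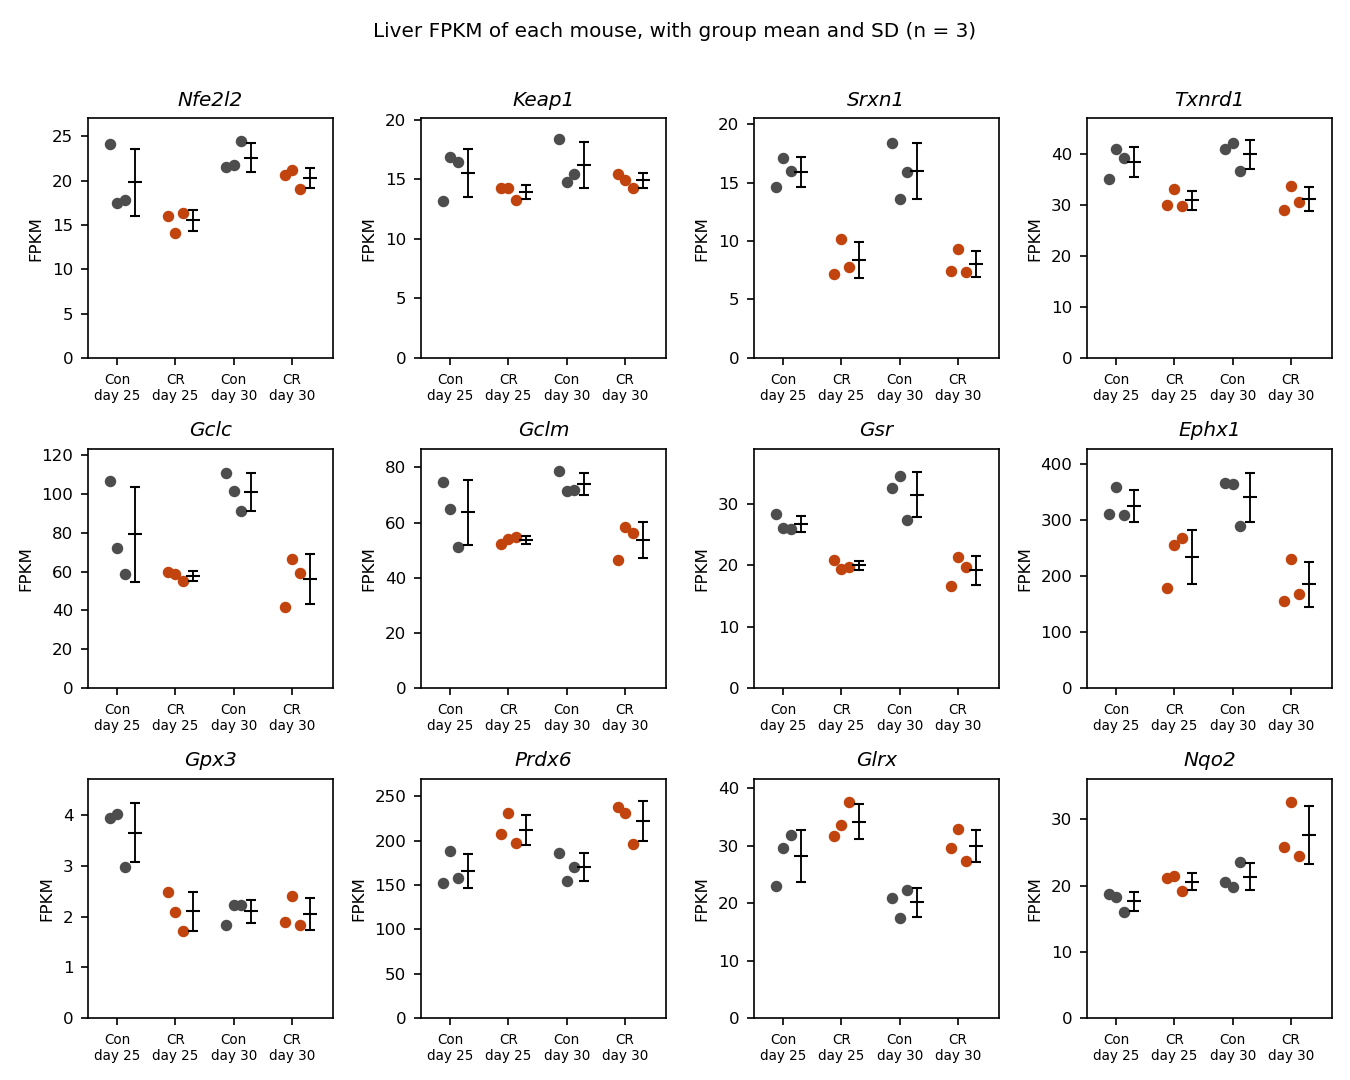
FPKM (y axis, from 0) of each mouse for 12 genes in the 4 groups. Dots are mice (grey Con, orange CR), and the bars beside them are the group mean with its SD (n = 3). For Srxn1, Txnrd1, Gsr and Ephx1 the CR dots lie below the Con dots at both days, for Prdx6 and Nqo2 they lie above, and Gpx3 differs at day 25 alone.

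In the thioredoxin system Srxn1 and Txnrd1 were lower and Txn2 was higher. Srxn1 (chr2:152105524-152111376, plus strand), sulfiredoxin, restores peroxiredoxins that were over-oxidised by peroxide. Its FPKM at day 25 was 14.6, 17.1 and 16.0 in Con and 7.19, 10.1 and 7.79 in CR mice. At day 30 the values were 18.4, 13.6 and 15.9 in Con and 7.41, 9.36 and 7.32 in CR mice. No CR mouse came near the lowest Con mouse at either day, and the mean FPKM was 47.3% lower at day 25 and 49.7% lower at day 30. Srxn1 fell at day 25 by 0.86 on the log2 scale (SE 0.14, adjusted p = 0.00369) and at day 30 by 0.91 (SE 0.14, adjusted p = 0.0015), in every alternative fit. This was the lowest fold change among the 34 genes at each day. Its promoter window was also the one with TGANTCA at a pair of positions and no TGACNNNGC.

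Txnrd1 (chr10:82859206-82897724, plus strand), the cytosolic thioredoxin reductase, is a selenoprotein. It had 35.1, 40.9 and 39.2 FPKM in Con and 30.0, 33.1 and 29.7 FPKM in CR mice at day 25. It had 41.0, 42.1 and 36.7 FPKM in Con and 29.0, 33.6 and 30.6 FPKM in CR mice at day 30. The groups did not overlap at either day. Txnrd1 fell by 0.30 at day 25 (SE 0.10, adjusted p = 0.0772) and by 0.35 at day 30 (SE 0.10, adjusted p = 0.0312). The call at day 25 was lost with median-ratio scaling, in a fit of that day alone, and without Con replicate 2 or 3 or CR replicate 1 or 3 of that day (adjusted p = 0.183 to 0.207 without 1 mouse). The call at day 30 was lost without Con replicate 2 or CR replicate 1 (adjusted p = 0.101 to 0.117), while the fall of 0.33 over both days (SE 0.067, adjusted p = 0.00285) held in every alternative fit.

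Txn2 (chr15:77915051-77928994, minus strand) encodes the mitochondrial thioredoxin. Its FPKM was 82.3, 103 and 91.4 in Con and 95.9, 113 and 97.3 in CR mice at day 25. At day 30 it was 83.8, 83.4 and 86.4 in Con and 111, 105 and 98.8 in CR mice. The groups overlapped at day 25 and were apart at day 30, where Txn2 rose by 0.31 (SE 0.11, adjusted p = 0.0702). Leaving out any 1 Con mouse of day 30, or CR replicate 1 or 2, lost that call (adjusted p = 0.124 to 0.206), and the rise of 0.23 over both days (SE 0.076, adjusted p = 0.0358) held in every alternative fit.

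The other members of the thioredoxin system did not pass. Txn1, the cytosolic thioredoxin, had log2 fold changes of 0.18 and 0.19, and over both days 0.19 (SE 0.084, adjusted p = 0.108), which passed with the replicate block (adjusted p = 0.0948). Txn1 also passed over both days with median-ratio scaling, TPM scaling and voom, and without the trend on expression, but not with quantile normalization. Txnrd2, its mitochondrial reductase counterpart, differed by 0.13 over both days (SE 0.11, adjusted p = 0.366). Txnip, which binds thioredoxin and is induced by glucose, was the most variable gene of the set, between 11.2 and 45.4 FPKM. The highest and the lowest value were a CR and a Con mouse of day 30, and the fold change over both days was 0.47 (SE 0.24, adjusted p = 0.147, 95% interval -0.041 to 0.98).

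The enzymes of quinones, epoxides and biliverdin moved in both directions. Ephx1 (chr1:180989556-181017569, minus strand), the microsomal epoxide hydrolase, had 310.0, 358 and 309 FPKM in Con and 178, 255 and 268 FPKM in CR mice at day 25. Day 30 values were 365, 365 and 289.8 FPKM in Con and 156, 231 and 168 FPKM in CR mice. Every CR mouse was below every Con mouse, and the mean FPKM was 28.2% lower at day 25 and 45.6% lower at day 30. Ephx1 fell by 0.89 at day 30 (SE 0.18, adjusted p = 0.0066) in every alternative fit. At day 25 the difference of -0.50 missed the threshold (SE 0.18, adjusted p = 0.11) and passed it with the replicate block (adjusted p = 0.0895). It also passed with TPM scaling, quantile normalization and voom, and without CR replicate 2 of day 30.

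Nqo2 (chr13:33967153-33988465, plus strand), a quinone reductase that uses dihydronicotinamide riboside, had 18.7, 18.3 and 16.0 FPKM in Con and 21.2, 21.4 and 19.2 FPKM in CR mice at day 25. The day 30 values were 20.5, 19.8 and 23.6 FPKM in Con and 25.8, 32.6 and 24.4 FPKM in CR mice. The CR mice lay above the Con mice at both days by a small margin. Nqo2 rose by 0.35 at day 30 (SE 0.12, adjusted p = 0.0611), a call lost in a fit of that day alone and without Con replicate 1 or 2 or CR replicate 2 of that day (adjusted p = 0.146 to 0.193 without 1 mouse). Over both days it rose by 0.28 (SE 0.082, adjusted p = 0.0198) in every alternative fit.

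Nqo1, the NADPH quinone reductase that is widely used as a readout of NRF2, was low in these livers, at 3.43 to 9.47 FPKM. Its groups overlapped, with a log2 fold change of -0.089 at day 25 (SE 0.25, adjusted p = 0.863), 0.35 at day 30 (SE 0.25, adjusted p = 0.348) and an interval of -0.25 to 0.51 over both days. Hmox2, the constitutive heme oxygenase, differed by 0.14 over both days (SE 0.069, adjusted p = 0.148). Blvrb, a biliverdin reductase, differed by 0.025 (SE 0.12, adjusted p = 0.894), with a sign that turned under TPM scaling and quantile normalization.

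Of the 6 peroxiredoxins, thiol enzymes that reduce peroxides, Prdx6 and Prdx2 were higher over both days and none was lower. Prdx6 (chr1:161240112-161251210, minus strand), the glutathione-dependent member, had 152, 188 and 158 FPKM in Con and 207, 231 and 198 FPKM in CR mice at day 25. It had 186, 154 and 170.2 FPKM in Con and 238, 231 and 196 FPKM in CR mice at day 30. All 6 CR mice were above all 6 Con mice. Prdx6 rose by 0.35 at day 25 (SE 0.12, adjusted p = 0.0963), by 0.38 at day 30 (SE 0.12, adjusted p = 0.0544) and by 0.36 over both days (SE 0.083, adjusted p = 0.00552), the last in every alternative fit. The call at day 25 was lost in 12 of 23 alternatives, 9 of them fits without 1 mouse (adjusted p = 0.104 to 0.249). These were the fits without any CR mouse of day 25, Con replicate 1 or 3 of day 25, and Con replicate 1 or 3 or CR replicate 1 or 2 of day 30. At day 30 it was lost without Con replicate 2 or 3 or CR replicate 1 or 2 of that day (adjusted p = 0.115 to 0.181).

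Prdx2 (chr8:84969622-84974662, plus strand) had 39.7, 54.6 and 41.6 FPKM in Con and 48.6, 61.1 and 52.9 FPKM in CR mice at day 25. Its FPKM at day 30 was 47.3, 43.5 and 43.4 in Con and 60.1, 57.6 and 45.5 in CR mice. The groups overlapped at both days. Prdx2 rose by 0.26 over both days (SE 0.10, adjusted p = 0.0525), and the call was lost without Con replicate 1 or 3 or CR replicate 2 of day 25, or CR replicate 1 of day 30 (adjusted p = 0.101 to 0.112). Prdx1, Prdx3, Prdx4 and Prdx5 overlapped between Con and CR at each day, with log2 fold changes over both days of 0.10, 0.14, 0.0088 and -0.11. The sign of Prdx4 turned under TPM scaling and quantile normalization. Prdx5 was called lower with quantile normalization, at day 30 and over both days. Prdx3 was called higher over both days with median-ratio scaling and without CR replicate 3 of day 30.

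Superoxide dismutases convert superoxide to peroxide, and catalase splits peroxide in peroxisomes. Cat (chr2:103453904-103485153, minus strand) was second of the set in mean level over the 12 mice, with a range that overlapped that of Sod1. It had 1157, 1019 and 1029 FPKM in Con and 1045, 1036 and 799 FPKM in CR mice at day 25. At day 30 its FPKM was 1141, 1190.1 and 1276 in Con and 881, 1051 and 1039 in CR mice. The groups overlapped at day 25 and were apart at day 30. Cat fell by 0.22 over both days (SE 0.089, adjusted p = 0.0716). That call was lost with median-ratio scaling, with quantile normalization, without the filter, and without Con replicate 1 or CR replicate 3 of day 25 or Con replicate 2 or 3 or CR replicate 1 of day 30 (adjusted p = 0.108 to 0.161 without 1 mouse).

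Sod2, the mitochondrial manganese enzyme, ranged from 38.5 to 53.1 FPKM. It rose by 0.18 over both days (SE 0.067, adjusted p = 0.0587), with the groups apart at day 25 and overlapping at day 30. The call was lost without Con replicate 1 or 3 or CR replicate 1 of day 25 or Con replicate 3 or CR replicate 2 of day 30 (adjusted p = 0.104 to 0.128). Sod1, the cytosolic copper-zinc enzyme, had a log2 fold change of 0.22 (SE 0.10, adjusted p = 0.11), which passed with the replicate block (adjusted p = 0.0574). Sod1 also passed with median-ratio scaling, TPM scaling, quantile normalization and voom, without the trend on expression, and in some fits without 1 mouse. Sod3, the extracellular enzyme, was at 5.35 to 8.77 FPKM and differed by 0.15 (SE 0.10, adjusted p = 0.259).

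Glutathione peroxidases reduce peroxides with glutathione and carry selenocysteine. Gpx1, the cytosolic enzyme, was the most abundant of the 36 transcripts, at 1183 to 1748 FPKM, and differed by 0.12 over both days (SE 0.11, adjusted p = 0.39). Gpx3 (chr11:54902854-54910387, plus strand), which encodes the secreted plasma enzyme, was at the other end. It had 3.94, 4.02 and 2.98 FPKM in Con and 2.49, 2.10 and 1.71 FPKM in CR mice at day 25. Its FPKM at day 30 was 1.84, 2.23 and 2.23 in Con and 1.90, 2.41 and 1.84 in CR mice. The Con mice of day 25 stood above the other 9 mice, which were alike.

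Gpx3 fell by 0.58 at day 25 (SE 0.13, adjusted p = 0.0143) in every alternative fit, and differed by -0.025 at day 30 (SE 0.13, adjusted p = 0.911), where the sign turned with median-ratio scaling and quantile normalization. The fall of 0.31 over both days (SE 0.12, adjusted p = 0.0592) was lost without the filter, with quantile normalization, and without Con replicate 1 or 2 or CR replicate 2 or 3 of day 25 (adjusted p = 0.109 to 0.13 without 1 mouse). Gpx4, which reduces lipid peroxides in membranes, differed by -0.045 over both days (SE 0.08, adjusted p = 0.702), with a sign that turned under median-ratio scaling.

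Glutaredoxins reduce protein disulfides with glutathione, and methionine sulfoxide reductases repair oxidised methionine. Glrx (chr13:75839886-75850151, plus strand), the cytosolic glutaredoxin, had 23.0, 29.7 and 31.8 FPKM in Con and 31.6, 33.5 and 37.5 FPKM in CR mice at day 25. Its values at day 30 were 20.9, 17.4 and 22.3 FPKM in Con and 29.6, 32.8 and 27.3 FPKM in CR mice. At day 25 the highest Con mouse was just above the lowest CR mouse, and at day 30 the groups were apart. Glrx rose by 0.55 at day 30 (SE 0.13, adjusted p = 0.0177) and by 0.41 over both days (SE 0.10, adjusted p = 0.00693), in every alternative fit, and differed by 0.28 at day 25 (SE 0.13, adjusted p = 0.216). Glrx2, Msra and Msrb1 differed by -0.10, 0.077 and 0.084 over both days, and none of them passed. The sign of Msrb1 turned with quantile normalization.

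**Figure D4:**
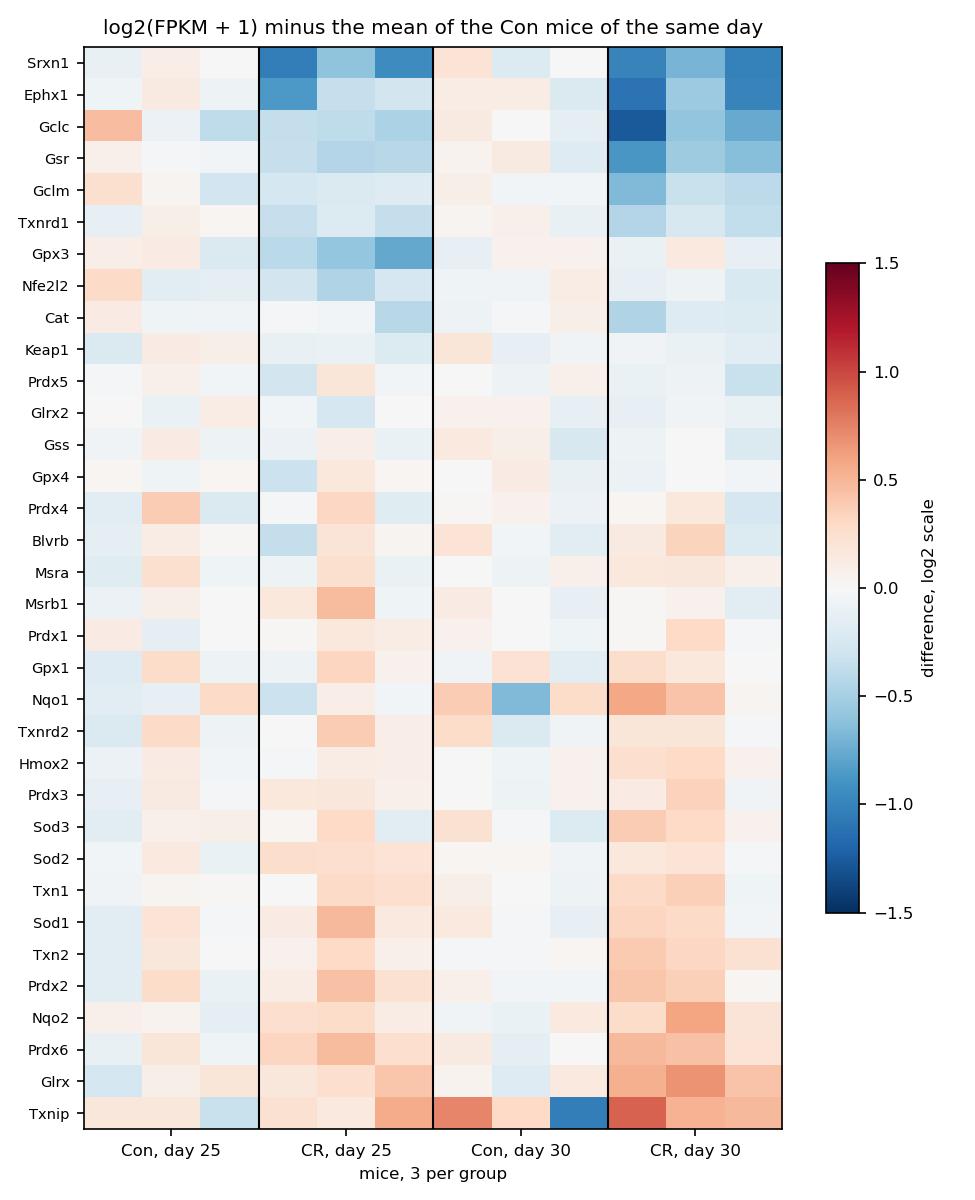
Each of the 12 mice (columns, in groups of 3) for the 34 tested genes (rows, ordered by fold change over both days), as log2(FPKM + 1) minus the mean of the Con mice of the same day (blue below, red above). Srxn1, Ephx1, Gclc and Gsr are blue in all CR mice, Prdx6 and Glrx are red in all CR mice, and most rows between are pale and mixed.

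In the fit over both days, 10 of the 15 called genes kept their call in every alternative fit at the same threshold, namely Srxn1, Ephx1, Gclc, Gsr, Gclm and Txnrd1 among the lower and Glrx, Prdx6, Nqo2 and Txn2 among the higher. Gpx3, Nfe2l2, Cat, Prdx2 and Sod2 each lost it in at least 1. The 9 genes that fell belonged to glutathione synthesis and recycling (3 of 4 tested), the thioredoxin system (2 of 6) and 4 other roles with 1 each, while the 6 that rose were spread over 5 roles.

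Whether CR acted differently at the days was tested by the interaction in the same limma model. None of the 34 genes passed, where 0.00944% of all tested genes did, and voom on recovered reads also called none. The unadjusted p was under 0.05 for 366 of all 10593 tested genes with limma and for 346 with voom. Among the 34 there was 1 such gene, by either method. This was Gpx3, with an interaction of 0.56 on the log2 scale (SE 0.18, unadjusted p = 0.00843 from limma). For the other genes with a call at 1 day alone, such as Gclc and Ephx1, the interaction was -0.46 (SE 0.29, adjusted p = 1) and -0.39 (SE 0.26, adjusted p = 1), so a difference between the days was not shown.

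Between day 25 and day 30, no gene of the 34 passed within CR mice, where 0.321% of all genes did, nor within Con mice, where 0% did. The unadjusted p from limma was under 0.05 for 917 of all 10593 tested genes within CR mice and for 765 within Con mice. Among the 34 genes it was so for 4 within CR mice and 5 within Con mice, and voom called none of the 34 in either. The gene farthest from 0 within Con mice was Gpx3, at -0.58 on the log2 scale (day 30 against day 25, SE 0.13, adjusted p = 0.321), and within CR mice Nqo1, at 0.41 (SE 0.25, adjusted p = 0.669).

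Other genes of the pathway were taken from 4 lists, with medians of -0.086 to 0.078 over both days on the log2 scale against -0.054 for all tested genes. Of 13 partners and regulators of NRF2, 2 were higher and 5 lower over both days, where 14.5% and 26.1% of all genes were. Maff, a small MAF protein, rose from a mean of 1.59 to 6.51 FPKM at day 25 and from 2.22 to 6.51 FPKM at day 30, with log2 fold changes of 1.54 (SE 0.17, adjusted p = 0.000386) and 1.24 (SE 0.17, adjusted p = 0.000757). Its relative Mafk fell by 0.40 over both days (SE 0.071, adjusted p = 0.00121). Sqstm1, the autophagy receptor that binds KEAP1, fell by 0.48 (SE 0.088, adjusted p = 0.00134), and Btrc, a ubiquitin ligase subunit that can mark NRF2, by 0.39 (SE 0.071, adjusted p = 0.00135).

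Of 36 other NRF2 targets, 34 were tested, and 10 were higher and 6 lower over both days, where 14.5% and 26.1% of all tested genes were. Gstp1, a glutathione transferase, had a mean of 440 FPKM in Con against 160 FPKM in CR mice at day 25 and 455 against 114 FPKM at day 30, a fall of 1.73 over both days (SE 0.24, adjusted p = 0.000191). Aox1, aldehyde oxidase, fell by 0.91 (SE 0.14, adjusted p = 0.00056). Gstm3, a mu-class glutathione transferase, rose by 1.34 (SE 0.27, adjusted p = 0.00238) and Cyp2a5, a P450 that oxidises coumarin, by 1.12 (SE 0.16, adjusted p = 0.000227). Gstp1, Gstm3 and Cyp2a5 have close copies in the genome whose reads the counting could have split, so their levels are uncertain.

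Among 25 other selenoproteins and thiol redox proteins, 21 were tested. Over both days 3 were higher and 2 lower, against 14.5% and 26.1% of all tested genes. Txnrd3, a thioredoxin reductase, fell by 0.39 (SE 0.10, adjusted p = 0.0128), and Glrx3 and Selenoh rose by 0.36 and 0.40 (adjusted p = 0.00539 and 0.0573), the latter call being lost without the filter on low values and in 6 of 12 fits without 1 mouse (adjusted p up to 0.124). Dio1, the deiodinase that activates thyroid hormone, fell by 1.09 at day 30 (SE 0.38, adjusted p = 0.0711), a call lost without the filter on low values, with robust moderation, in a fit of that day alone, and without Con replicate 1 or 2 or CR replicate 1 or 3 of that day (adjusted p = 0.106 to 0.262 without 1 mouse). Without 1 mouse its fold change at day 30 ran from -1.49 to -0.61. Nnt, named here after its values were seen because the strain carries the deletion, was at a mean of 11.3 to 14.5 FPKM in the 4 groups and rose by 0.24 over both days (SE 0.055, adjusted p = 0.00612).

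Of 15 oxidases that make peroxide or superoxide, 13 were tested. Over both days 5 were higher and 2 lower, against 14.5% and 26.1% of all tested genes. Acox2, the peroxisomal oxidase of bile acid precursors, fell by 0.91 (SE 0.087, adjusted p = 1.79e-05). Uox, urate oxidase, rose by 0.47 (SE 0.073, adjusted p = 0.000445), Xdh, xanthine dehydrogenase, by 0.32 (SE 0.067, adjusted p = 0.0035) and Cyp2e1, an ethanol-oxidising P450, by 0.41 (SE 0.10, adjusted p = 0.00794). Without the filter on low values the call of Cyp2e1 was lost (adjusted p = 0.105).

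**Figure D5:**
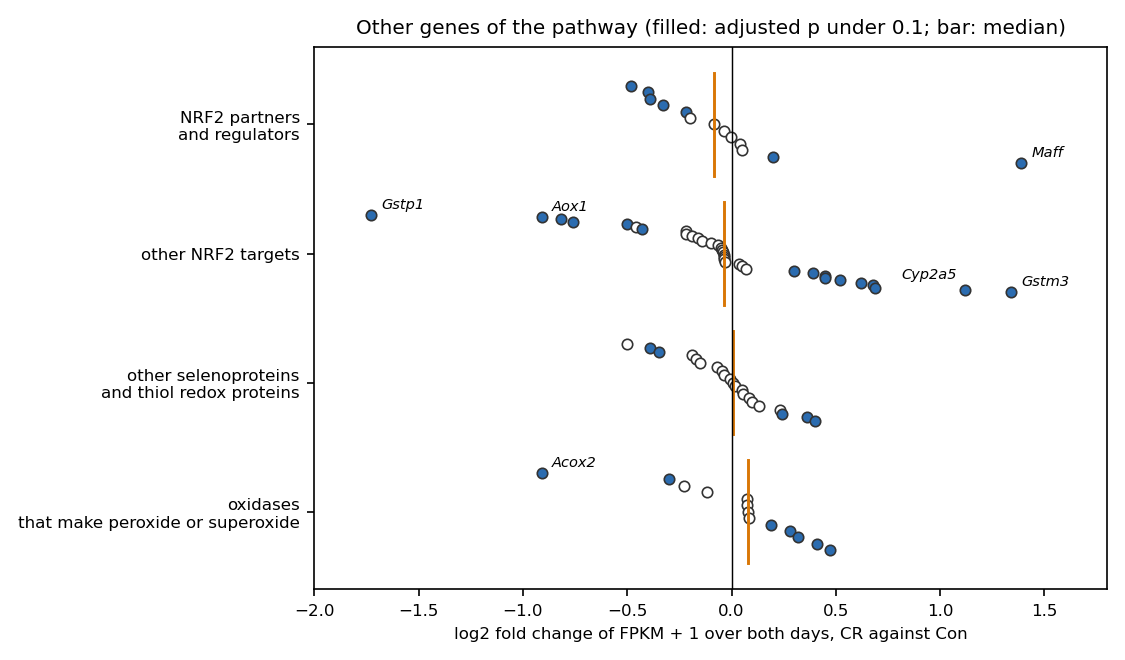
Log2 fold change of FPKM + 1 in CR against Con over both days (x axis) for the tested genes of 4 other lists of the pathway (rows). Each dot is a gene, filled at an adjusted p under 0.1, and the orange bar is the median of the list. Dots lie on both sides of 0 in every list, with Gstp1 farthest below and Maff and Gstm3 farthest above.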

How the data were processed

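Liver RNA of 12 mice was sequenced as paired-end reads on a single lane. The authors mapped reads to mm10 with BWA and deposited FPKM values, which the file header records as reads on exons counted by HOMER, with 1 RefSeq transcript per gene and no scaling between libraries. Software names are those of the submitters' notes and the file header (CASAVA 1.8.2).

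Low FPKM values were whole multiples of 1 read (100% of 2074 to 2184 values per library, within 0.1 read), which gave back the depth. The transform log2(FPKM + 1) was fitted in R (version 4.3.3) by limma (version 3.58.1; empirical Bayes with a trend on expression, 1 model of the 4 groups, 2-sided), and over both days with day as a covariate. The pseudocount of 1 makes fold changes of low genes smaller. The study's methods name a test on counts, which FPKM are not, so limma was used. p-values were Benjamini-Hochberg adjusted over 10593 genes and called under 0.1. Summaries used pandas 2.3.3 and numpy 2.4.6 under Python 3.11.15, and plots matplotlib 3.10.9.

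The genes and lists name symbols and set no condition on values, but were chosen with earlier results of these data known. Values in every mouse are given for called genes, up to the 14 with the largest change over both days, and for Nfe2l2 and Keap1. From each other list, up to 4 called genes with the largest change are named.

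Replicate numbers come from the titles at day 25, where same-numbered Con and CR mice deviated together from their group means (correlations 0.368, 0.306 and 0.106 across genes), so a replicate block was fitted as an alternative. Differently numbered mice gave correlations of -0.287 to 0.0134. The titles do not say that mice were paired. The block was chosen from these same data, so calls gained with it are descriptions. At day 30 the titles are numbered too, but the table's columns of Con mice cannot be tied to single titles, so no block was fitted. Replicates are separate mice. Other alternatives were the pseudocount, the filter, 3 scalings, the moderation, a fit of each day alone, voom on recovered reads, the thresholds and leaving out each mouse. Protein sequences were not used here.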

Additional observations from a re-analysis of the deposited data

How the results depend on the processing

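The number of the 34 tested genes called at day 25 was 5 and moved to 3 in a fit of that day alone and to 3 at an adjusted p under 0.05. At day 30 it was 10, with 9 in a fit of that day alone and 7 at an adjusted p under 0.05. Over both days it was 15, and 10 at an adjusted p under 0.05, where Nfe2l2, Prdx2, Sod2, Gpx3 and Cat dropped out. Adding a minimum absolute log2 fold change of 1 left 0 genes at each day and over both days, since no fold change was that large. Leaving out 1 mouse at a time gave 2 to 6 genes at day 25, 6 to 11 at day 30 and 12 to 18 over both days, and left the interaction and the difference between days in CR mice at 0. The lowest counts came without CR replicate 3 at day 25 (2 genes) and without Con replicate 2 or CR replicate 1 at day 30 (6 genes each). Calls over all 10593 tested genes moved too. A fit of the day alone took them from 1582 to 1223 at day 25 and from 2619 to 2317 at day 30. Without 1 mouse they ran from 893 to 1589 at day 25, 1497 to 2680 at day 30 and 3698 to 4198 over both days. The median log2 fold change of the 34 genes without 1 mouse ran from -0.078 to 0.084 at day 25 and from -0.019 to 0.16 at day 30. With the replicate block at day 25, 7 of the 34 genes passed at day 25 and 17 over both days, by the addition of Ephx1 and Nfe2l2 (day 25) and of Txn1 and Sod1 (both days), and no call was lost. Calls over all 10593 genes rose with it too, to 1748 at day 25 and 4610 over both days (from 1582 and 4304). Genes beyond the 15 also passed over both days in other fits. These were Sod1, Txn1, Hmox2 and Prdx3 with median-ratio scaling, Keap1, Sod1 and Txn1 with TPM scaling, and Gpx1, Sod1 and Prdx5 with quantile normalization.

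Signs turned for genes with fold changes near 0, none of them called in the comparison concerned. Gpx3 at day 30 was at 0.029 with median-ratio scaling and 0.059 with quantile normalization, and at -0.11 to 0.024 without 1 mouse. Over both days, Blvrb was at -0.00083 (TPM scaling), -0.054 (quantile normalization) and -0.037 to 0.1 without 1 mouse. Prdx4 was at -0.017 (TPM), -0.013 (quantile) and -0.056 to 0.09 without 1 mouse, Gss at 0.0062 (median ratio), Gpx4 at 0.025 (median ratio) and -0.09 to 0.018 without 1 mouse, Msrb1 at -0.017 (quantile) and Nqo1 at -0.04 to 0.22 without 1 mouse. Dio1 at day 25 was at -0.14 to 0.37 without 1 mouse. The causes were not tested.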

Other observations

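Several genes often taken as readouts of NRF2 were measured but fell outside the rule for named genes, and are given here after their values were seen. Hmox1, the inducible heme oxygenase, had a mean of 5.41 ± 0.558 FPKM in Con and 5.52 ± 2.2 FPKM in CR mice at day 25 (SD, n = 3) and 5.62 ± 0.719 against 5.41 ± 0.375 FPKM at day 30. Its groups overlapped at both days. Of the enzymes that supply NADPH or its precursors, Me1 differed by -0.045 on the log2 scale over both days (adjusted p = 0.762), G6pdx by -0.19 (adjusted p = 0.127) and Pgd by -0.032 (adjusted p = 0.802), while Tkt, transketolase, rose by 0.30 (adjusted p = 0.00523). The ferritin subunits Ftl1 and Fth1 differed by -0.16 and 0.067 (adjusted p = 0.223 and 0.601).

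Glutathione transferases moved in both directions. Gsta2, Gsta4, Gstm2 and Gstm6 rose by 0.69, 0.52, 0.62 and 0.39 over both days (adjusted p = 0.00469, 0.0101, 0.00694 and 0.0327), Gstm4 fell by 0.82 (adjusted p = 0.00119), and the abundant Gstm1 differed by -0.049 (adjusted p = 0.769). Reads of these near-identical genes could have been split between copies, so each level is uncertain. Ugdh, which makes the UDP-glucuronate that glucuronidation consumes, fell by 1.03 on the log2 scale at day 30 (limma, adjusted p = 0.00396). Its mean was then 124 ± 14.6 FPKM in Con and 61.7 ± 15.8 FPKM in CR mice (SD, n = 3). At day 25 the means were 75.8 ± 16.7 and 52.5 ± 3.17 FPKM, and the log2 fold change of -0.50 did not pass (limma, adjusted p = 0.122). Ugt1a6a, a glucuronosyltransferase that uses UDP-glucuronate, rose by 0.50 at day 30 (adjusted p = 0.0128). These genes were singled out for their values and are descriptions.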
